A study of Mus musculus with 2 samples.

Results

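Genes of nephronophthisis, of polycystic kidney disease and of the primary cilium were compared between whole kidneys labelled Glis2 KO and whole kidneys labelled Glis2 WT on 2 two-colour Agilent mouse arrays. The members were taken from a list of 36 genes, by the gene name or one of 6 fixed older aliases in the array design, which found 24 genes on 27 probes. A further 10 were found through the RefSeq accession or another older symbol of the probe, so 34 of the 36 genes could be described, among 19481 named genes on the array. Tmem67 and Pkhd1 had no probe under any of these names. The KO RNA carried Cy3 and the WT RNA Cy5 on array 1, and the dyes were swapped on array 2. The zinc finger transcription factor encoded by Glis2 is itself mutated in a form of nephronophthisis. Mice of postnatal day 25 and 60 were studied and RNA of 3 kidneys was pooled, from 2 independent experiments and with arrays in duplicate, per the series description, but the labels do not say which age lies behind either array, nor give the strain, the sex, the part of the gene that was altered, or whether the arrays are independent experiments or repeats of 1 pool. The p-values below therefore rest on spread between these 2 arrays, which may be technical. That spread is pooled: in the main test a gene's own values give 1 degree of freedom, and 6.58 come from the genes tested together.

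The primary cilium is an antenna of microtubules that projects from most kidney tubule cells into the urine. Cargo enters through the transition zone at its base, is carried outward by intraflagellar transport (IFT) particles on kinesin-II and is brought back by cytoplasmic dynein 2, while the BBSome, a coat complex named for Bardet-Biedl syndrome, sorts membrane proteins. Loss of transition zone and inversin-compartment proteins causes nephronophthisis, a fibrotic and cystic kidney disease, and loss of the polycystins or of IFT in tubules causes polycystic kidneys. Regulatory factor X (RFX) proteins bind a palindromic sequence, the X-box, ahead of many ciliary genes.

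Windows from 250 bases before to 50 bases after the start site, 300 bases in all, were available from RefSeq for 30 of the 36 genes (build GRCm38.p6). The X-box was searched on both strands as its arms GTTNCC and GGNAAC with any 2 bases between them. It was present in 2 of these 30 genes, or 6.67%, against 0.529% of 27025 genes with a window. A single X-box arm, GTTGCCA, which can overlap the full motif, was present in 4 of 30 (13.3%), against 5.03% of all genes. The Gli-type site GACCACCCA was present in 0 of 30, against 0.289% of all genes. The Ahi1 window (chr10:20952297-20952596, plus strand) and the Bbs7 window (chr3:36613340-36613639, minus strand) hold the full X-box, and the Ift88 window (chr14:57423821-57424120, plus strand) holds a single arm. They are shown, 5′ to 3′ on the strand of the gene, as the members with the full motif and 1 example of the single arm, and the matched letters are in capitals.
Ahi1: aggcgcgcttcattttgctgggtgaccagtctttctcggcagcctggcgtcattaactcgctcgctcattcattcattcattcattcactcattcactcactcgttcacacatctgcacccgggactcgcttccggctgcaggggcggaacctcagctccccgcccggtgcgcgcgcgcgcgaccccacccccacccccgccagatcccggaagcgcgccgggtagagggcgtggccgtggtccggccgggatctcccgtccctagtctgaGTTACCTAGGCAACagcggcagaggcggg
Bbs7: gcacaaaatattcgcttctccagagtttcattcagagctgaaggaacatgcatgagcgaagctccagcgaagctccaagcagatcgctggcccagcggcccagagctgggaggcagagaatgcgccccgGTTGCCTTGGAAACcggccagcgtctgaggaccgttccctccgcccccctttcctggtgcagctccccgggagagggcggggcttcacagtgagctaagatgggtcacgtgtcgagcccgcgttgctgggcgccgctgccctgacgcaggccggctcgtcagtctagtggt
Ift88: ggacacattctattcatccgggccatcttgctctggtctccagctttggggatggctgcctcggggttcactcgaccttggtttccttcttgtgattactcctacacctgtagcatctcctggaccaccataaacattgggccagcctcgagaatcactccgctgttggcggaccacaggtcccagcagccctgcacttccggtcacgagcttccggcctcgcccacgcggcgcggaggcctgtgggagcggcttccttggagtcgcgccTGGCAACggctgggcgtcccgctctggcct
The X-box starts at base 22 of the transcribed part of Ahi1 and 121 bases before the start of Bbs7. A match of letters is not a measured binding site. The log2 ratios (KO over WT) of these 3 genes were -0.20, -0.16 and 0.17 for Ahi1, Bbs7 and Ift88, and each is described with its role below.

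The share of spots well above background ran from 94.6% to 97.4% over the 4 channels, and all 34 genes were so in all 4 channels. Defining kidney genes were present: the collecting duct water channel Aqp2 had normalised signals of 3501 and 2759 in KO RNA, against 2737 and 2142 in WT RNA. Glis2 had normalised signals of 365 and 207 in KO RNA on arrays 1 and 2, against 293 and 185 in WT RNA, a log2 ratio of 0.24 ± 0.11 (moderated SE, n = 2) with an adjusted p of 0.328 in limma. It was thus not lower in the RNA labelled KO, and the sources used here do not say whether the probe lies in the altered part, so it does not check the labels. In markers of other cell types, 4 of 4 measured fibroblast, 3 of 5 macrophage and 5 of 5 adipocyte genes were called higher (list medians of 1.71, 1.63 and 2.10), and 2 of 6 proximal tubule genes lower (median -0.39). Of the collecting duct principal, intercalated and proliferating cell markers, 1 of 6, 1 of 5 and 1 of 5 were called higher (medians of 0.26, -0.00 and 0.10). Of 5 measured markers of multiciliated cells, 0 were called, with a median of 0.05 and 0 at an unadjusted p under 0.05. The part of these marker differences in the values below was not tested, and in whole kidney RNA fewer cells of a type and less RNA per cell cannot be told apart.

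None of the ciliary and cystic disease genes passed the test. Of the 24 genes found by name, 0 were called higher and 0 lower in KO kidneys by limma at an adjusted p under 0.05, and the same held for all 34. Over all 18357 genes tested, 3.79% were called higher and 1.21% lower, 5.01% in all. At an unadjusted p under 0.05, 4 of the 24 were higher and 0 lower (16.7%), against 10.1% and 6.31% of all genes, or 16.4% in all. Among all 34, 4 were higher and 1, Ift122, was lower (14.7%). A 1.5-fold difference on both arrays was seen in 0 of the 34, against 2.21% of all genes higher and 0.528% lower. The scanner software's own p was under 0.01 on both arrays in the same direction for 0 of the 34, against 3.43%. The median log2 ratio of the 24 was 0.05 (0.04 on array 1 and 0.10 on array 2), and that of all genes was 0.01. With arrays centred on the median in place of loess, the median of the 24 was 0.00, at -0.003706, and that of all genes -0.02. Over the 34 genes the median was 0.04.

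The intervals give a range of change under a given way of processing. In the main setting the offset of 50 adds to both channels, so ratios of dim genes are understated. Umod is set aside here because its spot was saturated. For all 33 other genes the 95% interval of the log2 ratio lay within 2-fold in either direction, against 97.5% of all genes. For 29 of them (87.9%) it lay within 1.5-fold, against 86.2% of all genes. With an offset of 16 in the background correction, 24 of the 33 lay within 1.5-fold (72.7%, against 70.7% of all genes) and all 33 within 2-fold (against 95.4% of all genes). With the scanner software's own log ratio, which differs in background subtraction, dye normalization and offset, 21 lay within 1.5-fold (63.6%, against 50.04% of all genes) and 28 within 2-fold (84.8%, against 85.2%). The width of the intervals thus differed between these ways of processing, so the main intervals of dim genes do not bound their change. For the dim gene Bbs1 the interval ran from -0.34 to 0.19 in the main setting. With the scanner's log ratio it ran from -1.08 to 0.46. The part of the offset in these differences was not tested. At the standard errors of the 33 genes in the main setting, a mean log2 ratio between 0.47 and 0.76 (median 0.49) would have been needed for a call. Their means ran from -0.39 for Invs to 0.40 for Ift57.

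**Figure D1:**
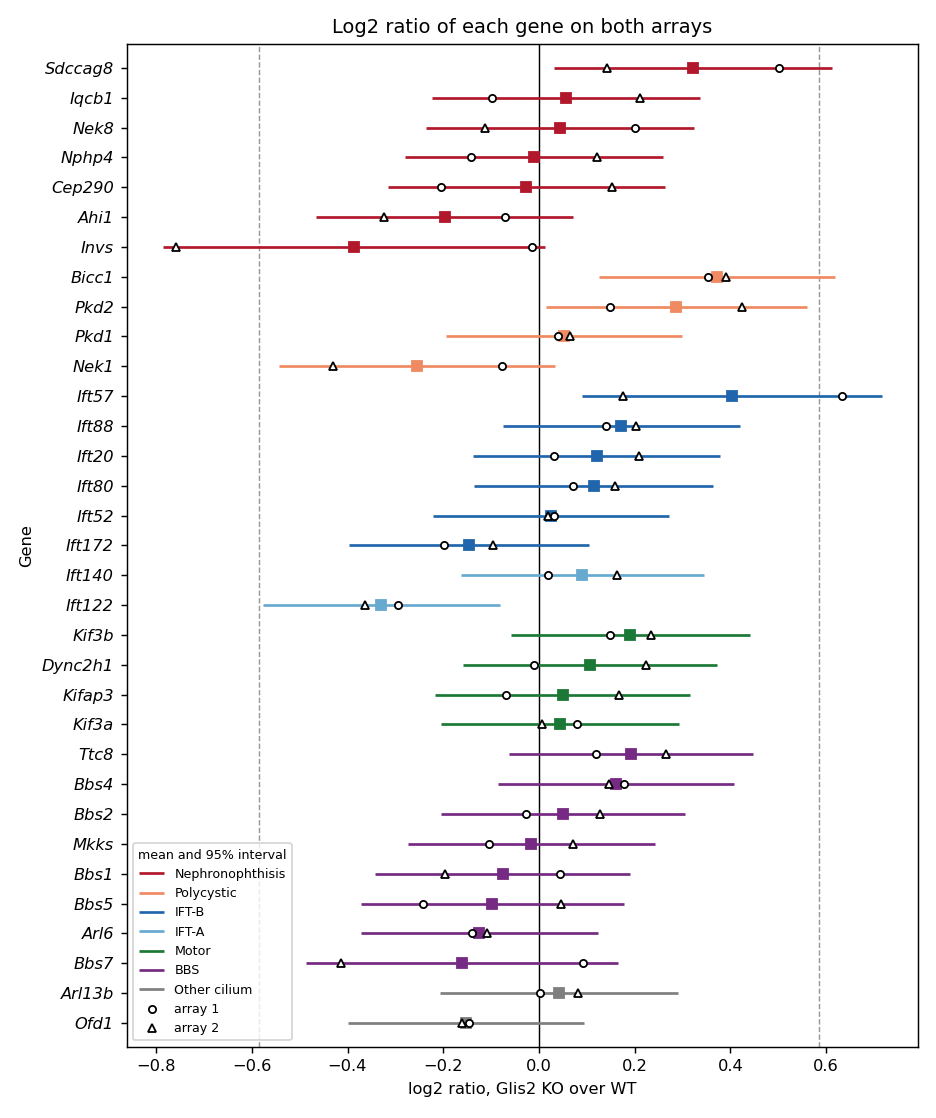
Log2 ratio of KO over WT for the 33 unsaturated genes, grouped by role. Squares and lines are the mean and its 95% interval (limma, n = 2 arrays), open circles and triangles the value on array 1 and array 2, and dashed lines mark 1.5-fold. All means lie between -0.39 and 0.40, and 11 genes have arrays on opposite sides of 0.

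The 2 arrays often disagreed on direction. Of the 33 genes, 22 had the same sign on both arrays (66.7%), 15 above 0 and 7 below, against 60.7% of all genes. Across the 33 genes the log2 ratios of the arrays had a Pearson r of 0.35 and a Spearman rho of 0.41, against 0.59 and 0.37 across all genes; these are descriptions over genes that share the same arrays. The 11 unsaturated disease genes varied more between arrays than the 22 transport genes, with a median SD between arrays of 0.22 and 0.09, against 0.12 for all genes. They were also dimmer, with a median mean log2 intensity of 7.56 for the disease genes and 8.18 for the transport genes. The median absolute log2 ratio was 0.20 for the disease genes and 0.12 for the transport genes, and 0.12 for all genes. The part of intensity in these differences was not tested. Signed medians were 0.04 for the disease genes and 0.05 for the transport genes, closer together than the medians of the disease genes on array 1 and array 2 (-0.01 and 0.12).

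**Figure D2:**
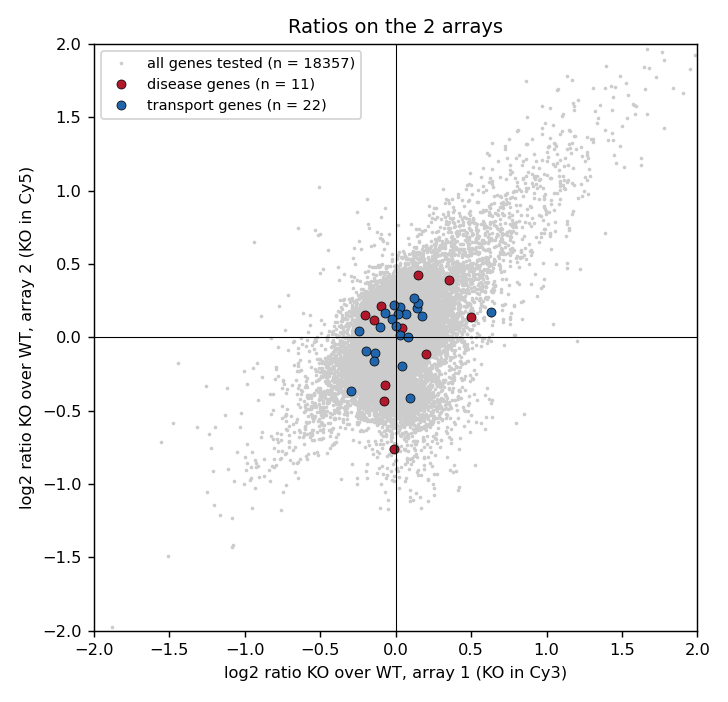
Log2 ratio of KO over WT on array 1 (KO in Cy3) against array 2 (KO in Cy5). Grey points are all 18357 genes tested (20 lie beyond the axes), red the 11 unsaturated disease genes and blue the 22 transport genes. Of the coloured genes, 0 are in the top 5% of all genes by absolute mean. The largest, Ift57, is at percentile 92.1.

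Among the nephronophthisis genes, 7 had a probe and 0 were called. Invs encodes inversin, which names a compartment of the proximal cilium and sets left-right asymmetry. Its normalised signals, which include the offset of 50, were 141 and 228 in KO RNA on arrays 1 and 2, against 142 and 386 in WT RNA. Array 1 gave nearly equal signals and array 2 a lower KO value, so the mean log2 ratio of -0.39 (95% interval -0.79 to 0.01, adjusted p = 0.320 in limma) rests on array 2 alone. Sdccag8, a centrosomal scaffold protein, had signals of 165 and 160 in KO RNA, against 116 and 145 in WT RNA. On each array the KO value was higher, most clearly on array 1. The log2 ratios were 0.50 and 0.14 (mean 0.32, 0.03 to 0.61, adjusted p = 0.251 in limma).

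Ahi1 encodes jouberin, a transition zone protein mutated in Joubert syndrome. Its brighter probe had signals of 100 and 100 in KO RNA, against 105 and 125 in WT RNA, a mean log2 ratio of -0.20. A second Ahi1 probe gave 0.09, so the probes differed in direction. Iqcb1 and Cep290, partners at the transition zone, had log2 ratios of -0.10 and 0.21 (Iqcb1) and of -0.21 and 0.15 (Cep290) on arrays 1 and 2. Nphp4, a transition zone scaffold, had -0.14 and 0.12. The kinase gene Nek8, whose product acts in the inversin compartment, had 0.20 and -0.11. These 4 genes thus each had arrays of opposite sign, with means between -0.03 and 0.06, and the sign of the Iqcb1 mean turned with median centring (-0.01) and with the scanner's log ratio (-0.0016).

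Among the polycystic disease genes, Bicc1 was the most even between arrays of the members with a large ratio. Bicc1 encodes an RNA-binding protein whose mouse mutants develop polycystic kidneys. Its signals were 5078 and 5580 in KO RNA on arrays 1 and 2, against 3975 and 4254 in WT RNA. Each KO value was above the WT value of the same array, with log2 ratios of 0.35 and 0.39. The mean was 0.37 (moderated SE 0.11 over 2 arrays), with an interval from 0.13 to 0.62. The adjusted p was 0.113 in limma, so Bicc1 was not called, and 90.9% of all genes had a smaller absolute mean. Pkd2, the cation channel polycystin-2, had signals of 171 and 153 in KO RNA, against 154 and 114 in WT RNA. The KO value was higher on each array, with log2 ratios of 0.15 and 0.43. The mean was 0.29 (0.01 to 0.56, adjusted p = 0.278 in limma), so Pkd2 was not called.

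Pkd1, which encodes the large membrane receptor polycystin-1, had signals of 694 and 633 in KO RNA, against 676 and 605 in WT RNA. The arrays agreed on a ratio near 0, with log2 values of 0.04 and 0.06 and an interval from -0.19 to 0.30. Nek1, a kinase whose loss causes cysts in the kat mouse, had signals of 134 and 222 in KO RNA, against 142 and 300 in WT RNA (mean log2 ratio -0.25, -0.54 to 0.03, adjusted p = 0.364). Umod encodes uromodulin, the most abundant protein of normal urine, made in the thick ascending limb and mutated in a dominant tubulointerstitial kidney disease. Its spot was saturated in all 4 channels, so both groups have only a bound and no fold is given. Of 6 other measured genes of the thick ascending limb, 1 was called lower, Egf at -0.96, which was named after its value was seen, and the list median was 0.04.

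**Figure D3:**
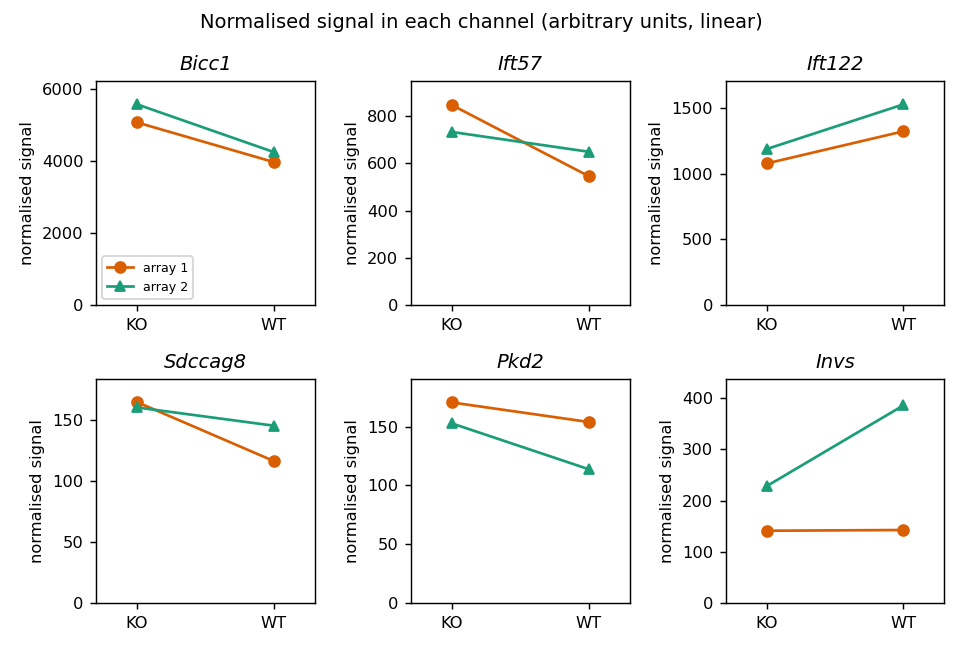
Normalised signal (arbitrary units, linear, from 0) in KO and WT RNA on array 1 (circles) and array 2 (triangles), with a line joining the channels of 1 array. The genes were chosen after their values were seen: the 5 with an unadjusted p under 0.05 and Invs. Bicc1 and Ift122 differed alike on both arrays, while the Invs difference appears on array 2 alone.

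The IFT-B complex drives transport to the ciliary tip. Its 6 genes among the members had the same sign on both arrays, 5 above 0 and 1 below. Over all genes, 60.7% had the same sign. Other IFT-B genes on the arrays were named after their values were seen. Of these, Ift22, Ift81, Traf3ip1 and Hspb11 had arrays of opposite sign. Ift74 and Cluap1 were below 0 on both arrays, and Ift27 and Ift46 were above 0 on both. Ift57, a peripheral IFT-B subunit, had signals of 848 and 733 in KO RNA, against 547 and 650 in WT RNA. The KO value was above the WT value on each array, but the difference was much larger on array 1. The log2 ratios were 0.63 and 0.18 (mean 0.40 ± 0.13, moderated SE, n = 2, adjusted p = 0.176 in limma). Ift88, the core subunit disrupted in the orpk mouse with polycystic kidneys, had signals of 340 and 240 in KO RNA, against 309 and 209 in WT RNA. Its log2 ratios of 0.14 and 0.20 gave an interval from -0.08 to 0.42. Ift20, which also serves the Golgi, averaged 0.12, Ift80 0.11 and the core subunit Ift52 0.03. Ift172 was the member below 0, at -0.15, and its second, dimmer probe gave -0.17.

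IFT-A, which returns cargo and admits membrane proteins, was represented by Ift122 and Ift140. Ift122 had signals of 1078 and 1188 in KO RNA on arrays 1 and 2, against 1323 and 1528 in WT RNA. The KO value was below the WT value on each array, with log2 ratios of -0.30 and -0.36. Ift122 had a mean of -0.33 (moderated SE 0.11 over 2 arrays) and an interval from -0.58 to -0.08. It was the member with the lowest p among those below 0, and was not called (unadjusted p = 0.0159, adjusted p = 0.163 in limma). Ift140 had a mean of 0.09, and its second probe gave 0.10. The other IFT-A genes, named after their values were seen, had log2 ratios of 0.20 (Ift43), 0.04 (Wdr19), -0.04 (Wdr35) and -0.14 (Ttc21b), with 0 called.

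Of the 4 motor genes, 0 were called. Kif3a and Kif3b, the motor subunits of kinesin-II, had mean log2 ratios of 0.04 and 0.19, and Kifap3, its cargo adaptor, had 0.05. Kif3b signals were 296 and 376 in KO RNA, against 268 and 319 in WT RNA. The KO value was higher on each array, with an interval of the log2 ratio from -0.06 to 0.44. The Kif3a mean turned to -0.03 with median centring. Dync2h1, the heavy chain of the retrograde motor dynein 2, had 3 probes, at 0.11, 0.08 and -0.01, and its brightest probe gave -0.01 and 0.22 on arrays 1 and 2.

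Of 8 genes of the Bardet-Biedl group, 0 were called, and their means ran from -0.16 to 0.19. Of the BBSome subunits, Ttc8 had signals of 275 and 291 in KO RNA, against 253 and 242 in WT RNA, and Bbs4 had 350 and 271 in KO RNA, against 310 and 245 in WT RNA. Ttc8 and Bbs4 were both higher in KO RNA on each array, with mean log2 ratios of 0.19 and 0.16 and adjusted p of 0.444 and 0.511 in limma. Bbs1, Bbs2, Bbs5 and Bbs7 had arrays of opposite sign, the widest being Bbs7, at 0.09 and -0.41. Mkks, a chaperonin-like protein that helps to assemble the BBSome, had -0.10 and 0.07. Arl6, the small GTPase that recruits the BBSome to membranes, had signals of 444 and 504 in KO RNA, against 490 and 544 in WT RNA, an interval of the log2 ratio from -0.37 to 0.12.

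Ofd1, a centriole protein mutated in oral-facial-digital syndrome, had signals of 361 and 460 in KO RNA, against 399 and 514 in WT RNA. Its log2 ratios of -0.15 and -0.16 agreed closely, with an adjusted p of 0.533. Arl13b, a GTPase of the ciliary membrane, had 0.00 and 0.08. Of the members, Iqcb1, Ift57, Arl6 and Arl13b lie on chromosome 16, as Glis2 does, with means of 0.06, 0.40, -0.12 and 0.04, so 3 lie above 0 and 1 below.

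Further genes of the same machinery were read from a list of 86 genes, of which 71 were tested. Of these, 0 were called in either direction, with 4 higher and 4 lower at an unadjusted p under 0.05 (11.3%, against 16.4% of all genes), and the median log2 ratio was 0.00, at 0.002056. The 4 with the largest absolute means were Dynlt1b, a dynein light chain that also serves cytoplasmic dynein (0.43, adjusted p = 0.0698), Tulp3, which carries receptors into cilia (-0.33), Xpnpep3, a mitochondrial peptidase gene of a nephronophthisis-like disease (-0.32), and the Wnt co-receptor Lrp5 (-0.30). The last 3 had adjusted p between 0.203 and 0.265. The X-box match was present in 4 of 73 of these genes with a window (5.48%).

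The choice of variance model decided whether single genes were called. With a prior variance that follows intensity and is robust to outlying genes, 2 of the 24 genes were called, Bicc1 (adjusted p = 0.000225) and Ift57 (adjusted p = 5.33e-05), both higher in KO kidneys. That is 8.33%, against 13.5% of all genes. Among all 34, Ift122 was also called, as lower (adjusted p = 0.00115), which makes 3 of 34 (8.82%). With this prior the SE was 0.0857 for Bicc1, 0.0863 for Ift57 and 0.0837 for Ift122. Their SDs between arrays were 0.03, 0.32 and 0.05, so a gene's own spread had little weight in these p-values. Across the 12 ways of processing, several of which leave the means unchanged, Bicc1 ran from 0.34 to 0.38 in log2 ratio. Ift57 ran from 0.39 to 0.44 and Ift122 from -0.35 to -0.33, and each of the 3 genes was called in 1 of these ways.

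**Figure D4:**
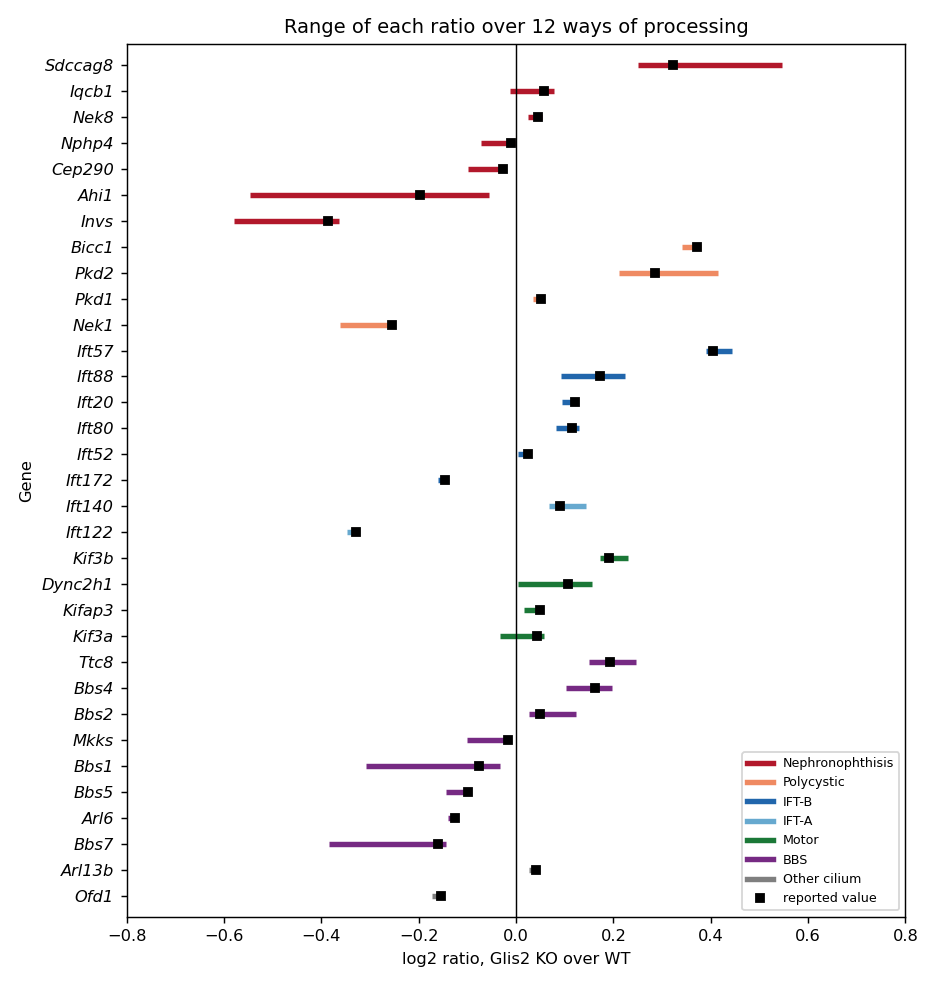
Lowest to highest mean log2 ratio (KO over WT) of each of the 33 unsaturated genes over 12 ways of processing (bars, coloured by role), with the reported value as a square. Several of these ways leave the means unchanged. Only the bars of Iqcb1 and Kif3a cross 0, and the widest belong to dim genes such as Ahi1.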

How the data were processed

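The labels' protocol gives 500 ng of total RNA as input, 750 ng of each dye's cRNA per array and a hybridisation of 17 hours. Scans were read with Agilent Feature Extraction 8.1.1.1. The deposited spot intensity is the scanner's mean signal with its local background, not yet normalized. The deposited log10 ratio (Cy5 over Cy3) and its p-value follow the scanner software's background subtraction and dye normalization, as given in the file headers. The authors' deposited value table holds the same log10 ratios with the sign turned, with a largest difference of 0.

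R 4.3.3 and limma 3.58.1 were used. Signals were corrected with normexp (offset 50), normalized by loess with controls at no weight, and turned to KO over WT. After 88 outlier spots were left out, spots well above background in the KO channel of both arrays or the WT channel of both were kept. The brightest probe stood for its gene. limma (lmFit, eBayes) tested 18357 genes with 1 residual and 6.58 prior degrees of freedom, with Benjamini-Hochberg adjustment over all genes. The offset adds to both channels, so ratios of dim genes are understated. The number of arrays limits the precision. In simulated data of KO over WT (18357 genes), each fold was given to only a small part of the genes, whose number is not given here. Of these changes, 26.9% of the 1.5-fold, 98.5% of the 2-fold and 100% of the 4-fold ones were called. These shares were not split by intensity, so they need not hold for dim genes.

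Members, lists, alternatives and the rule for named genes were chosen with earlier results of these data known. The rule took every member with a probe, Glis2, and called genes or else the 4 largest of the further ciliary genes. It also took the first 3 of each marker list, of which only Aqp2 is named above. Egf and the other IFT-A and IFT-B genes lie outside the rule. A genome build for the array is not given in the sources used here, so coordinates are given only for RefSeq windows. Slide and dye orientation change together between the arrays, so they cannot be told apart. Each array holds both groups, so values per array are values within a slide. Signals were normalized only within each array, so KO and WT signals of different arrays are not on a shared scale.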

Additional observations from a re-analysis of the deposited data

How the results depend on the processing

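Counts of calls depended on the variance prior and the threshold, and no alternative that kept the main prior and threshold called any of the 24 genes found by name. With the trended and robust prior, 2 of the 24 genes were called higher (1 disease gene and 1 transport gene). Of the 71 further ciliary genes, 5 were called higher and 3 lower, against 13.5% of all genes in either direction. At an unadjusted p under 0.05, 4 of the 24 were higher (3 disease and 1 transport). Of the 71, 4 were higher and 4 lower (11.3%), against 16.4% of all genes. Without background correction 1 of the 71 was called higher, against 875 of 18357 genes. The main setting called 696 of all genes higher and 223 lower. Plain subtraction gave 204 higher and 24 lower, offset 16 gave 302 higher and 56 lower, and median centring gave 235 higher and 48 lower. The trended prior gave 1540 higher and 932 lower, and the scanner's log ratio and the deposited values gave 0 in either direction, so with those ratios no list could show calls. The median of the 24 genes was -0.003706 with median centring, and between 0.0401 and 0.0963 with 1 array left out. Of the 33 unsaturated genes, 31 kept the sign of their mean over 12 ways of processing. Quantile scaling of intensity between arrays, the changes of spot filter and the trended prior left the mean of every member unchanged. The value table repeats the scanner's log ratio. The distinct ratios are therefore fewer than 12. Iqcb1 turned to -0.0119 with median centring and -0.00156 with the scanner's log ratio or the value table, and Kif3a to -0.0321 with median centring. The causes were not tested. With 1 array left out the log2 ratio ran from -0.14 to 0.12 for Nphp4, from -0.205 to 0.152 for Cep290, from -0.11 to 0.20 for Nek8, from -0.10 to 0.21 for Iqcb1, from -0.242 to 0.0456 for Bbs5, from -0.103 to 0.0716 for Mkks, from -0.068 to 0.167 for Kifap3, from -0.00974 to 0.224 for Dync2h1, from -0.196 to 0.0442 for Bbs1, from -0.0278 to 0.127 for Bbs2 and from -0.414 to 0.0918 for Bbs7. The search by another older symbol and the omission of Umod were chosen after seeing the data, and left the median of the genes at 0.0436 and 0.0494.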
